A study of Homo sapiens with 2 samples.

Results

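The genes described here encode the core of the actin cytoskeleton and of the adhesions to which it is anchored: ACTB, ACTG1, PFN1, CFL1, MYH9, FLNA, VCL, ZYX, TLN1 and ACTN1. They are 10 of 19974 protein-coding genes on chromosomes 1 to 22 and X. The genes were chosen by name together with peak calls already seen in these data, among them a run of peaks upstream of ACTB, so their peaks are given as a description and no test is made on them. Peaks were taken where the summit lay within 1 kb of either RefSeq end of a gene (an end peak), inside the gene, or within 50 kb of it. By this rule 58 of 15186 DMSO peaks and 38 of 10836 inflachromene peaks belonged to the 10 genes.

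The peaks come from ChIPmentation, in which immunoprecipitated chromatin is fitted with sequencing adapters by a transposase, in PANC-1, an established line of human pancreatic ductal adenocarcinoma cells. There were 2 samples of this single line, 1 given the solvent DMSO and 1 given inflachromene, a small molecule that binds the nuclear proteins HMGB1 and HMGB2. Both had been crosslinked with EGS for 30 min and then 1% formaldehyde for 10 min. The sources used here name neither the antibody's target nor the dose and duration of inflachromene, so a peak says only that fragments were concentrated at a place. With 1 sample per treatment no test was possible: every difference below is between these 2 libraries, and the exact Poisson 95% intervals cover counting error only, fragments without molecular identifiers not being independent molecules. The median summit held 23 fragments in each list, over a local background of 2.01 in DMSO and 2.09 in inflachromene.

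Actin exists as single subunits and as filaments. Profilin feeds subunits to growing filaments, cofilin severs old ones, filamin and alpha-actinin crosslink them and non-muscle myosin pulls on them. Talin, vinculin and zyxin tie filaments to integrin adhesions. Many of these genes are known targets of the transcription factor SRF, whose coactivators MRTF-A and MRTF-B are held in check by free actin subunits and which binds a sequence called the CArG box.

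RefSeq promoter sequences (GRCh38.p14, the same coordinates as hg38) were found for 9 of the 10 genes; ACTB had no entry. The CArG box was found, with both strands searched, in 2 of the 9 windows from 250 bases before to 50 after the start, against 1.29% of 35116 promoters of the same length and 1.25% of those of coding genes. In ACTG1 and FLNA it lay at the same place, 94 to 85 bases before the start. The 250 bases before the start are printed 5′ to 3′ because one box lay under a summit and the other under no peak. They are chr17:81512800-81513049 and chrX:154374635-154374884, both on the minus strand, with the CArG box in capitals.
ACTG1: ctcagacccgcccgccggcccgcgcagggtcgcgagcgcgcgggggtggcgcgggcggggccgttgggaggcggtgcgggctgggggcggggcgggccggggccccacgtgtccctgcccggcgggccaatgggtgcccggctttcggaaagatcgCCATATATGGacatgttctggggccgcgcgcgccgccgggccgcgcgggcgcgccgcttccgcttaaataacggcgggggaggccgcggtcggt
FLNA: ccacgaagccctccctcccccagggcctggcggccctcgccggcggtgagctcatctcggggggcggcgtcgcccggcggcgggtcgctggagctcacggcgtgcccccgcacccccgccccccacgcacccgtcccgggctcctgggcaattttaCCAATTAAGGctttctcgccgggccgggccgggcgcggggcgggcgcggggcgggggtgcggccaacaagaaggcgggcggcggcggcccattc

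At ACTG1 the box (chromosome 17, 81512884 to 81512893) lay inside the peak of both lists. Its centre was 5.5 bp from the DMSO summit and 1.5 bp from the inflachromene summit. At FLNA the box (chromosome X, 154374719 to 154374728) lay in no peak of either list, and none of the 300 bases of the promoter window was covered. A match shows only that these letters are present, and no factor's binding was measured by it.

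The 6 letters GGAATG, the core of the TEAD factors' motif, were found on either strand in 3 of the 9 windows, against 12.2% of those of coding genes. These were the windows of VCL, MYH9 and PFN1. Their 250 bases before the start are chr10:73997866-73998115 on the plus strand and chr22:36387968-36388217 and chr17:4948531-4948780 on the minus strand, with GGAATG in capitals.
VCL: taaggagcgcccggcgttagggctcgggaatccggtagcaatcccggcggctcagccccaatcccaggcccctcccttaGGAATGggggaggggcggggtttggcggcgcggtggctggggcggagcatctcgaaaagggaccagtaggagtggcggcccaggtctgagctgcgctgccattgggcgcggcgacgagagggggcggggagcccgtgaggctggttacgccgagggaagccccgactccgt
MYH9: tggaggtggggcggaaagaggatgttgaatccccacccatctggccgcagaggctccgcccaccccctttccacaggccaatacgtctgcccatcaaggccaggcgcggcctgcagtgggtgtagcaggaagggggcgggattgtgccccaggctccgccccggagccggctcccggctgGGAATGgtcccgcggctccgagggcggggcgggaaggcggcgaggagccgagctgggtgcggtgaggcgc
PFN1: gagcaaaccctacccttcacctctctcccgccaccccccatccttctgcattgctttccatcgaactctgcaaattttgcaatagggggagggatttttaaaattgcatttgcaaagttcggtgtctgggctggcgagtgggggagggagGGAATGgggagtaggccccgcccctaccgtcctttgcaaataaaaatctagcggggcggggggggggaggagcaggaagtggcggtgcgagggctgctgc

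In VCL the motif was centred 16.5 bp from the DMSO summit, in MYH9 147.5 bp from it, and in PFN1 it lay in no peak. GGGCGG, the core letters of the GC box, occurred in all 9 windows (45.0% of all promoters and 69.7% of the 10607 promoters of coding genes with a DMSO end peak). CCAAT occurred in 6 of 9 (34.6% of all promoters) and at FLNA it overlapped the CArG box. CCGGAAG, the ETS motif, occurred in CFL1 alone, against 10.3% of all promoters, and the E-box CACGTG in ACTG1 alone, against 7.26%. Neither TATAAA nor the AP-1 motif TGANTCA was found in any of the 9 windows, against 11.5% and 7.71% of all promoters. The windows were GC-rich, with a median of 70.3% against 65.3% for promoters of coding genes with a DMSO end peak, and ranged from 61.3% at PFN1 to 78.3% at FLNA.

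An end peak was present in DMSO at 9 of the 10 genes, against 45.8% of all protein-coding genes, and in inflachromene at 8, against 38.2%. All 8 genes with an inflachromene end peak also had one in DMSO, a class that held 36.6% of all genes. PFN1 was the only gene of the 10 with an end peak in DMSO alone. Of all genes with a DMSO end peak 20.2% had none in inflachromene, and of all with an inflachromene end peak 4.16% had none in DMSO. FLNA had no end peak in either list. Of the 11 DMSO end peaks of the group 3 also lay at an end of another coding gene, against 19.4% of all DMSO peaks at coding gene ends.

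The summit, the place of highest coverage in a peak, held fewer fragments in inflachromene at 7 of the 8 genes with a peak in both lists and the same number at CFL1. Over all 7304 genes in both lists it was lower at 77.4%. The median ratio of inflachromene to DMSO fragments was 0.731 for the 8 genes and 0.821 for all genes, whose central range from the 25th to the 75th percentile was 0.706 to 0.962. Summed over the 8 genes, 338 fragments in inflachromene stood against 496 in DMSO, a ratio of 0.681. The ratio differed with the strength of the DMSO peak: over all genes its median was 1.0 below 20 DMSO fragments, where ZYX lies and 46.3% were lower, and 0.818 from 20 to 39. It was 0.784 from 40 to 59, 0.775 from 60 to 99 and 0.772 at 100 and above, where VCL lies. The strongest DMSO end peak of the 10 genes had a median of 45 fragments, against 28 for all genes with one.

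**Figure D1:**
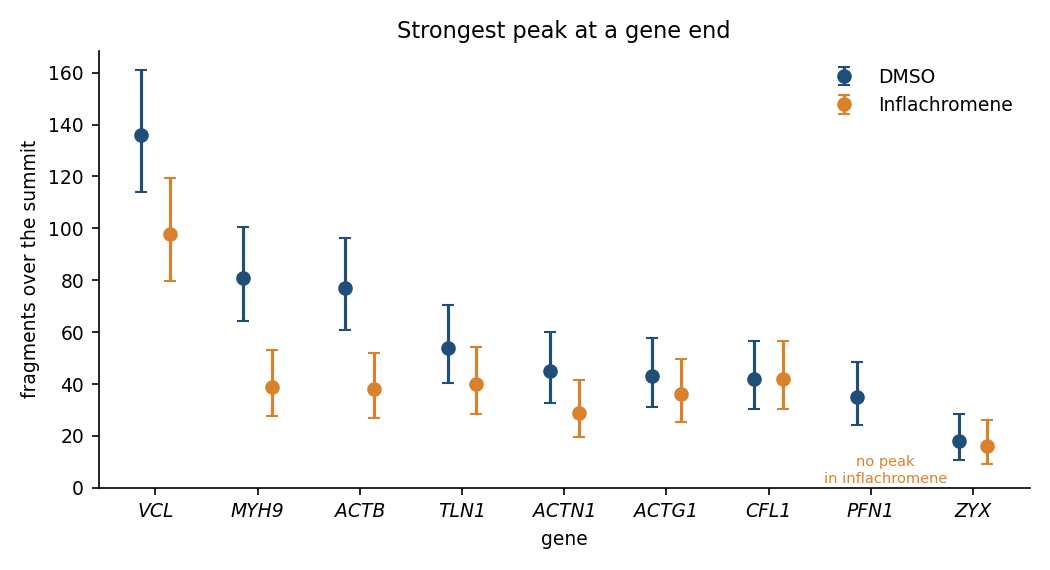
Fragments over the summit of the strongest end peak (vertical axis) of the 9 genes that have one, in DMSO (blue) and inflachromene (orange), with exact Poisson 95% intervals as bars. The intervals of the 2 libraries do not overlap at ACTB and MYH9, and PFN1 has no inflachromene peak.

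The 2 cytoplasmic actin genes differed in these values. ACTB encodes beta-actin and lies on chromosome 7 (5527148 to 5530601), known to be read from the minus strand, so that its higher-numbered end was taken as the start. Its strongest peak (5529731 to 5530165) had a summit 690 bp inside the gene from the start. There 77 fragments (interval 60.8 to 96.2) were found in DMSO and 38 (26.9 to 52.2) in inflachromene, a ratio of 0.494. The inflachromene value was the lower of the pair, and the intervals did not overlap. Of all genes in both lists 1.48% had a ratio as low as this or lower, and of the 792 with 60 to 99 DMSO fragments there were 9, ACTB and MYH9 included.

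At ACTB the peak caller's local background, the coverage it takes as the level around a summit, hardly differed between the libraries, with 9.82 fragments in DMSO and 9.62 in inflachromene. The fold enrichment, the summit against this background, was 7.21 in DMSO and 3.67 in inflachromene. The DMSO summit held more fragments than those of 95.6% of genes with a DMSO end peak, and its background exceeded 99.2% of theirs, so that its fold enrichment lay below their median of 9.37. A second, narrower DMSO peak (5530517 to 5530695) had its summit 27 bp outside the gene from the start, with 32 fragments at 3.27-fold, and no inflachromene peak overlapped it. With a window of 500 bp in place of 1 kb, the strongest peak is no longer an end peak and ACTB counts as having one in DMSO alone.

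ACTG1 encodes gamma-actin, which differs from beta-actin at a few residues of its amino terminus, and lies on chromosome 17 (81509971 to 81512799). Its summit lay 84 bp upstream of the start in DMSO and 88 bp upstream in inflachromene. It held 43 fragments (31.1 to 57.9) in DMSO and 36 (25.2 to 49.8) in inflachromene, a ratio of 0.837, so the intervals overlapped widely. The background was lower in inflachromene, 6.62 against 8.46, and the fold enrichment was therefore slightly higher there, 4.86 against 4.65. By fold enrichment the ACTG1 peak exceeded only 1.94% of the genes with a DMSO end peak, and by fragments 76.5%.

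Of the subunit-handling proteins, profilin and cofilin, the genes had peaks of similar size in DMSO and differed in inflachromene. PFN1 encodes profilin 1 and lies on chromosome 17 (4945652 to 4948530). DMSO peaks had summits 2 bp and 543 bp upstream of its start, with 25 and 35 fragments at 4.32-fold and 6.02-fold. No inflachromene peak overlapped either. Both also lay at an end of ENO3, a glycolytic enolase gene of muscle that starts beside PFN1 in the opposite direction, and cannot be credited to either gene alone. Of the genes with 20 to 39 DMSO fragments, 13.1% had no inflachromene peak. The nearby peak at SPAG7 held 70 fragments in DMSO and 75 in inflachromene.

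CFL1 encodes cofilin 1 and lies on chromosome 11 (65854673 to 65858180). Its summit, 48 bp upstream of the start in DMSO and 134 bp in inflachromene, held 42 fragments (30.3 to 56.8) in each library. With a background of 8.15 in DMSO and 6.91 in inflachromene the fold enrichment was 4.70 and 5.44. Of the 8 genes with an end peak in both lists, CFL1 was the only one whose end summit was not lower in inflachromene. A second peak 1348 bp upstream, just outside the 1 kb limit and at an end of the nuclease gene MUS81, held 48 fragments in DMSO and 41 in inflachromene. The gene nearest to the limit on its inside was ACTB, with its summit at 690 bp.

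Of the motor and crosslinker genes, MYH9 and ACTN1 had an end peak in both lists and FLNA in neither. MYH9 encodes the heavy chain of non-muscle myosin IIA and lies on chromosome 22 (36281280 to 36387967). Its peak (36387871 to 36388473 in DMSO) had a summit 215 bp upstream of the start, with 81 fragments (64.3 to 101) in DMSO. In inflachromene the summit lay 389 bp upstream and held 39 fragments (27.7 to 53.3), a ratio of 0.481, the lowest of the group. The intervals did not overlap. The background was 4.21 in DMSO and 3.30 in inflachromene, and the fold enrichment 15.7 and 9.31.

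ACTN1 encodes alpha-actinin 1 and lies on chromosome 14 (68874128 to 68979302). Its summit, 82 bp upstream of the outermost of 4 listed starts in DMSO, held 45 fragments (32.8 to 60.2) in DMSO and 29 (19.4 to 41.6) in inflachromene, a ratio of 0.644. Inside the gene, 28.1 kb downstream of that start, a further peak was present in both lists, with 36 and 29 fragments. Another, 39.2 kb downstream, held 19 fragments in DMSO and had no inflachromene peak. ACTN1 was thus the gene of the group with the most DMSO peaks inside it, 2 against 1 in inflachromene.

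FLNA encodes filamin A and lies on chromosome X (154348531 to 154374634). Its only peak inside the gene (154371158 to 154371692 in DMSO) had a summit 3207 bp downstream of the start, where 40 fragments were found in DMSO (28.6 to 54.5) and 42 in inflachromene (30.3 to 56.8). This summit was not lower in inflachromene, whereas those on both sides of the gene were. The peak 6.47 kb beyond its far end held 97 fragments in DMSO and 60 in inflachromene, and one 15.4 kb upstream of its start held 104 and 58. Neither lay within 1 kb of a coding gene end. At EMD, the emerin gene next to FLNA, the summit held 94 and 91 fragments.

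The adhesion genes all had an end peak in both lists. VCL encodes vinculin and lies on chromosome 10 (73998116 to 74121363). Its peak (73997704 to 73998309 in DMSO) was the strongest of the group, with 136 fragments (114 to 161) in DMSO and 98 (79.6 to 119) in inflachromene, a ratio of 0.721. The intervals overlapped slightly, and the fold enrichment was 18.3 and 14.5. It held more fragments than the strongest end peak of 99.5% of genes with one in DMSO.

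TLN1 encodes talin 1 and lies on chromosome 9 (35696948 to 35732195). Its summit held 54 fragments (40.6 to 70.5) in DMSO and 40 (28.6 to 54.5) in inflachromene, a ratio of 0.741. The peak also lay at an end of CREB3, a gene for a membrane-bound transcription factor. ZYX encodes zyxin and lies on chromosome 7 (143381345 to 143391111). Its summit was the weakest of the group, with 18 fragments (10.7 to 28.4) in DMSO and 16 (9.15 to 26.0) in inflachromene, and it was also inside the annotated FAM131B. The DMSO summit lay 177 bp upstream of the start and the inflachromene summit 356 bp upstream. The inflachromene peak covered no base of the promoter window, of which the DMSO peak covered 205. No other peak lay within 50 kb of ZYX in either list. With the DMSO list cut to the 10836 peaks of the lowest p-values, ZYX has an end peak in inflachromene alone.

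**Figure D2:**
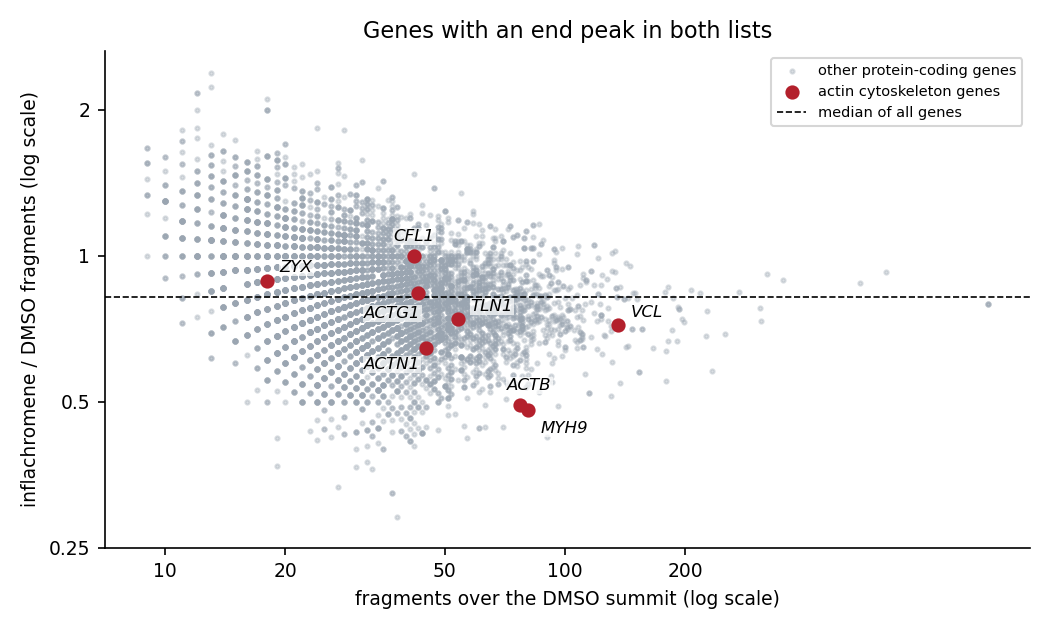
Ratio of inflachromene to DMSO fragments (vertical axis, log scale) against DMSO fragments (horizontal axis, log scale) at the strongest end peak of each gene with a peak in both lists; red points are the 8 actin cytoskeleton genes, grey points other genes and the dashed line the median of 0.821. ACTB (0.494) and MYH9 (0.481) lie at the lower edge of the cloud, and CFL1 at a ratio of 1.

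Where the strand was listed, the strongest DMSO end summit lay upstream of the start at 8 of 8 genes, against 77.3% of the 7345 coding genes whose strongest end summit was within 1 kb of a listed start. The median distance was 164.5 bp upstream for the 8 genes and 75 bp for all. The ACTB peak, inside the gene, has no listed strand and was left out of this count.

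Backgrounds were high for the group. The median local background at the strongest DMSO end peak was 4.98 fragments for the 9 genes and 2.05 for all genes with such a peak, and it was above 2.05 at 8 of the 9. Over the 8 genes with both peaks, the ratio of inflachromene to DMSO background ran from 0.783 at both MYH9 and ACTG1 to 0.980 at ACTB. The median of this ratio was 0.928, against 0.949 for all genes. Fold enrichment was accordingly modest, with a median of 7.21 against 9.37. At a DMSO background of at least 5, the median ratio over the 424 genes with both peaks was 0.820, and 3 of them, ACTB included, were at or below the ACTB ratio. The part of the background in the differences between the libraries was not tested.

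**Figure D3:**
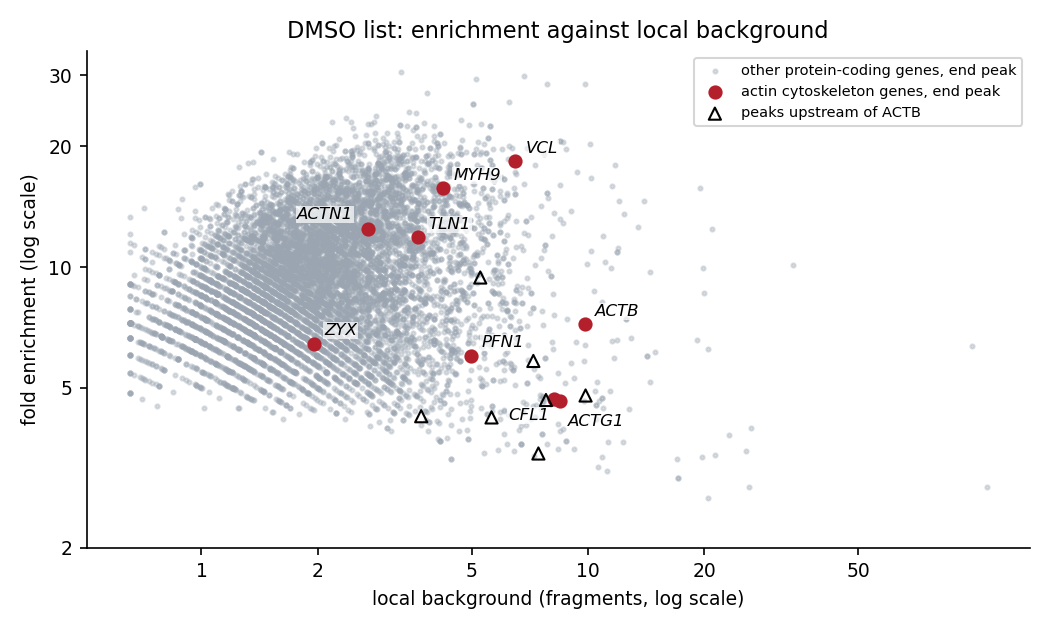
Fold enrichment (vertical axis, log scale) against local background (horizontal axis, log scale, fragments) in the DMSO list; red points are the strongest end peaks of 9 actin cytoskeleton genes, triangles the 7 peaks upstream of ACTB and grey points the end peaks of other coding genes. ACTB, ACTG1, CFL1 and VCL and 6 of the 7 triangles lie at backgrounds above 5, as do few of the grey points.

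Around ACTB the DMSO list had 12 peaks inside the gene or within 50 kb and the inflachromene list 6, against medians of 2 and 1 for all coding genes. Of coding genes 0.220% had as many DMSO peaks or more, as had 0.442% of the genes of at most 10 kb. The most were at RHOU and SUPT5H, with 19 each. Of the 12 peaks, 2 lay at the start of ACTB, 3 inside or at an end of FBXL18 on the far side of ACTB, and 7 between ACTB and FSCN1. These 7 were within 1 kb of no coding gene, and 0.0701% of coding genes had as many such peaks or more. The run was known when ACTB was chosen, so these shares only describe it. Neighbouring genes that share the same peaks are each counted.

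The 7 peaks spanned 21.1 kb of chromosome 7 (5549301 to 5570408), with summits 18.8 kb to 39.7 kb upstream of ACTB. All 7 summits also lay within 50 kb of FSCN1, which begins at 5592816. Those 32.3 kb or more from ACTB, the strongest among them, were nearer to FSCN1 than to ACTB. The 7 summits were 540 to 7334 bp apart. Those with an inflachromene partner were 4, which 3 inflachromene peaks overlapped, and 3 had none. Of all DMSO peaks 35.5% had no inflachromene peak, and of those away from coding genes 50.4%.

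In order from ACTB, the peak at 18.8 kb held 19 fragments and the peak at 26.1 kb held 28, and neither had a peak in inflachromene. At 28.5 kb the summit held 51 fragments in DMSO and 44 in inflachromene. At 32.3 kb it held 40 and 37. These ratios, 0.863 and 0.925, were both higher than that at the ACTB start.

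The peak at 33.1 kb (5563620 to 5563880) held 47 fragments (34.5 to 62.5) at 5.84-fold in DMSO, and no inflachromene peak overlapped it. It was strong for such a peak: of the 5390 DMSO peaks without a partner only 27 had as many fragments. The nearest inflachromene summit was 849 bp away. By fold enrichment it exceeded 35.2% of those 5390 peaks, the background there being 7.22 fragments.

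At the far end, DMSO peaks at 39.1 kb and 39.7 kb held 27 and 58 fragments, and a single inflachromene peak (5569713 to 5570400) spanned both, with 42 at its summit. The strongest peak of the run thus had a ratio of 0.724. In all, the DMSO peaks of the run covered 2087 bp and the inflachromene peaks 1264 bp. The local background was at or above 5 fragments at 6 of the 7 DMSO peaks, against 5.99% of all DMSO peaks. Its median was 7.22 in the run, against 1.86 for the 3368 DMSO peaks away from coding genes.

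**Figure D4:**
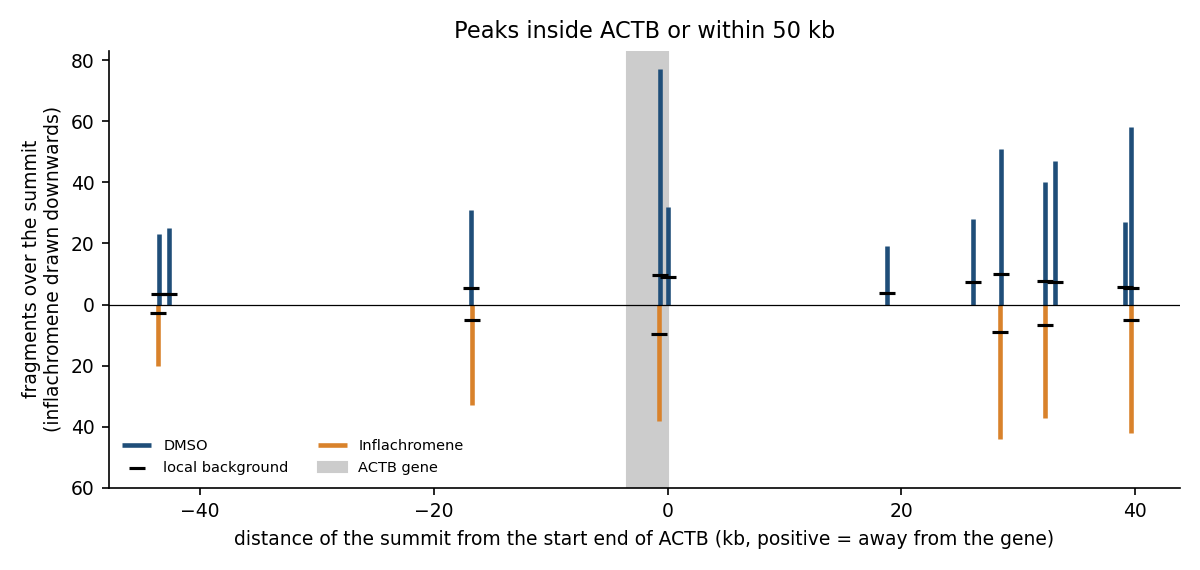
Fragments over each summit (vertical axis; DMSO upwards in blue, inflachromene downwards in orange) against distance from the start end of ACTB (horizontal axis, kb), with black ticks for the local background and the gene in grey. The ACTB summit has 77 fragments in DMSO and 38 in inflachromene, while 3 summits between 28 and 40 kb have 37 to 44 fragments in inflachromene.

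Beyond the run lies FSCN1, chosen after its values were seen, which encodes the actin-bundling protein fascin and whose nearer end is 62.2 kb from ACTB. Its end peak held 40 fragments in DMSO (28.6 to 54.5) and 34 in inflachromene (23.5 to 47.5), a ratio of 0.850. On the other side, the FBXL18 end peak held 31 and 33. The ratio at ACTB was therefore lower than at the coding genes on either side, a comparison of single values without a test.

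Taking all 10 genes, 19 of the 58 DMSO peaks (32.8%, exact binomial 95% interval 21.0 to 46.3) had no inflachromene peak, close to the 35.5% of all DMSO peaks. The interval treats the peaks as independent draws, although 12 of them lay around ACTB, and it covers no spread between samples. Each of the 38 inflachromene peaks overlapped a DMSO peak; of all inflachromene peaks 9.62% overlapped none. The unpartnered DMSO peaks were weaker, with a median of 23 fragments against 45 for the others. At the 39 DMSO peaks with a partner the median ratio was 0.837, near the 0.833 of all 9796 such peaks; it was lower at 29, higher at 7 and equal at 3.

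**Figure D5:**
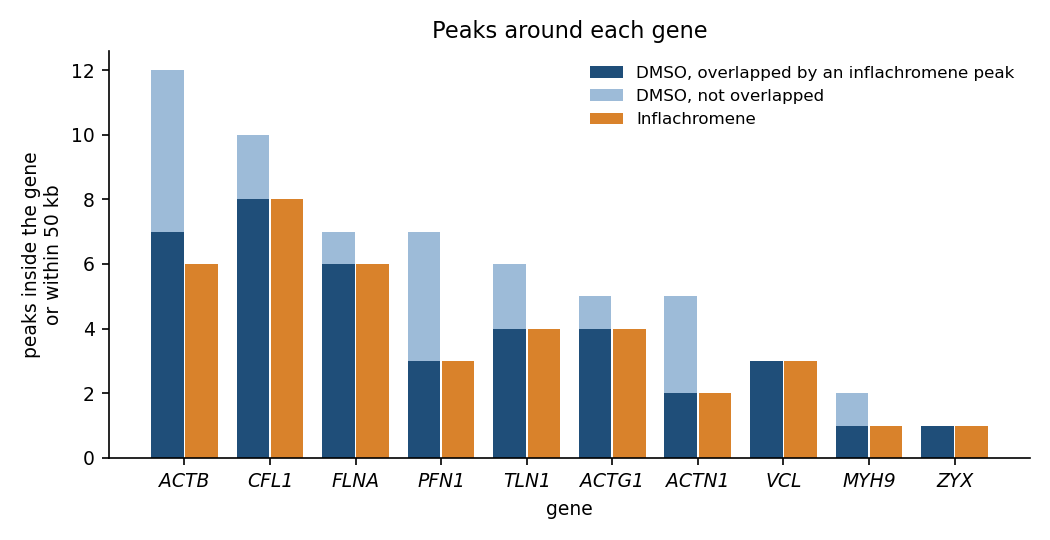
Number of peaks inside each gene or within 50 kb (vertical axis), with DMSO bars divided into peaks overlapped (dark blue) and not overlapped (light blue) by an inflachromene peak, and inflachromene bars in orange. ACTB has the most in DMSO, 12, of which 5 are not overlapped.

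Of the 58 DMSO peaks 11 lay at ends of the 10 genes, 21 at ends of other coding genes, 10 inside a coding gene only (3 of these in FLNA and ACTN1), and 16 away from coding genes, 7 of these in the ACTB run. CFL1 had 10 DMSO peaks nearby and 8 in inflachromene, 42.4 kb from the strongest of them at FOSL1, an AP-1 gene, with 150 fragments in DMSO and 126 in inflachromene. The CFL1 neighbours FIBP and CCDC85B had backgrounds of 23.1 and 26.4 fragments in DMSO. Near TLN1 lay TPM2, a tropomyosin gene, with 22 fragments in DMSO and 23 in inflachromene. PFN1 had 7 DMSO peaks nearby and 3 in inflachromene, MYH9 had 2 and 1, and VCL 3 and 3. The peak nearest to the 50 kb limit outside it was near TLN1, at 50033 bp.

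A wider list of 73 genes of actin assembly, contraction, adhesion and the SRF pathway was also chosen with earlier results of these data known. It is given as a description. An end peak was present in DMSO at 52 of the 73 (71.2%, interval 59.4 to 81.2), against 45.8% of all coding genes. The interval treats these chosen genes as independent draws and covers no spread between samples. Of these, 48 were in both lists and 4 in DMSO alone, and 2 further genes were in inflachromene alone. The 4 were 7.69% of the 52, against 20.2% of all genes with a DMSO end peak. This share differed with peak strength: over all genes it was 53.9% below 20 DMSO fragments, 13.1% from 20 to 39 and 0.444% from 40 to 59. The comparison was not matched for strength. With the DMSO list cut to the length of the other, 8 genes were in inflachromene alone and 1 in DMSO alone. A shorter DMSO list gives such a change by construction, and the share over all genes is not given for it. The summit was lower in inflachromene at 43 of the 48 (89.6%) and higher at 5, against 77.4% lower for all genes, and the median ratio was 0.730, against 0.821. None of the 48 had a ratio as low as that of ACTB, which only 1.48% of all genes in both lists reached. The lowest was 0.536 at ARPC5, a subunit gene of the Arp2/3 complex that starts filament branches. The ARPC5 peak also lay at an end of RGL1.

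The 6 genes of the wider list with the most DMSO fragments among those in both lists were RAC1, ACTN4, WASF1, ANLN, SRF and RHOA. RAC1, the GTPase gene that drives sheet-like protrusions, held 137 fragments in DMSO and 75 in inflachromene, a ratio of 0.547. ACTN4, the paralogue of ACTN1, held 123 and 93. WASF1, an activator of the Arp2/3 complex, held 71 and 51, and ANLN, the anillin gene of the cytokinetic ring, 68 and 37. RHOA, the GTPase gene that promotes stress fibres, held 63 and 55. The peaks of WASF1, ANLN and RHOA also lay at ends of CDC40, MATCAP2 and TCTA. SRF itself held 66 and 52 fragments, a ratio of 0.788, and MRTFA 51 and 46.

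The wider list's genes with an end peak in DMSO alone were CFL2 with 24 fragments, SSH1, a cofilin phosphatase gene, with 18, CNN3 with 15 and TMSB10 with 14. In inflachromene alone were LIMK1, a cofilin kinase gene, with 23 fragments and ARPC1B with 20. The highest ratio was at ITGB1, the integrin beta 1 gene, with 30 fragments in inflachromene against 23 in DMSO.

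No end peak was found in either list at 19 of the 73 genes. Among them were all 4 muscle actin genes (ACTA1, ACTA2, ACTC1 and ACTG2), the smooth-muscle genes CNN1, TAGLN and MYL9, the second SRF coactivator gene MRTFB and TMSB4X, whose product sequesters actin subunits. In 4 others the outermost ends missed a peak at another start: within 1 kb of any start in the promoter table TPM1 held 39 fragments in DMSO and 31 in inflachromene, and TPM3 57 and 39. TPM4 held 21 and MSN 11 in DMSO, both without an inflachromene peak. Counted this way, 50 of 64 wider-list genes with a listed start had a DMSO peak (78.1%), against 50.2% of 15812 coding genes.

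Markers of the cell type were read in the same way. Of 6 ductal and PANC-1 markers, KRT8, KRT18, SOX9 and VIM had an end peak in both lists, KRT19 in DMSO alone and KRT7 in neither, and KRT8 and KRT18 shared theirs. None of 8 muscle, 3 acinar and 2 blood markers had one in either list. Over all coding genes 45.8% had one in DMSO and 38.2% in inflachromene, so the absence at so few acinar and blood genes says little.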

How the data were processed

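ChIPmentation peaks of 1 DMSO and 1 inflachromene sample were used. The tools named per the submitters' processing notes are MACS2, without a version, and deepTools 3.5.6, with the build hg38. The aligner, the handling of duplicates and any control library are not stated by the sources used here. The deposited lists give for each summit a fold enrichment (a ratio of coverage to local background), a −log10 p-value and −log10 q-value, a score, not used further, and the summit's offset. Read totals were not used here, so depth enters only through the summits.

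Whole fragment numbers over each summit and the local background were recovered from fold enrichment and −log10 p with MACS2's formulas, (summit + 1)/(background + 1) and the Poisson tail. All 15186 DMSO and 10836 inflachromene peaks on chromosomes 1 to 22 and X matched within 0.001; on simulated data the step was checked in the same way. The lowest −log10 q was 3.02 and 3.01. This scheme is inferred from the values.

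Peaks were set against a RefSeq table of GRCh38.p14. A gene's peaks were those with a summit within 1000 bp of either end, or those of the other list overlapping them by at least 1 bp; the strongest was compared. Python 3.11.15, SciPy 1.17.1 and pandas 2.3.3 were used. The 10 genes and all lists were chosen with earlier results of these data known. Named are all 10 genes, their neighbours at shared peaks, and of the wider list the 6 strongest in both lists and all in 1 list alone; ARPC5, MRTFA, ITGB1, the genes without a peak at their ends and other neighbours were named after their values were seen. The alternatives were other windows, distances, overlaps and thresholds.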

Additional observations from a re-analysis of the deposited data

How the results depend on the processing

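No paired analysis was possible because each treatment had 1 sample. Of 108 values recomputed under 11 settings, 92 stayed within 1.5 times (for the summed fragment ratio, within its counting interval). With a 500 bp window 2 of the 10 genes, PFN1 and ACTB, had an end peak in DMSO alone, since both strong ACTB summits fell outside it. With the DMSO list held to the length of the other, 1 gene, ZYX, was in inflachromene alone. With this list 7 DMSO peaks around the 10 genes and 2 around ACTB had no partner, in place of 19 and 5. Of the wider list 1 gene was in DMSO alone and 8 in inflachromene alone. A shorter DMSO list gives such changes by construction, and shares over all genes and peaks are not given for it. Within 20 kb there were 29 DMSO and 21 inflachromene peaks around the 10 genes, 8 of the former without a partner, and around ACTB 4 and 2, with 2 without a partner; within 100 kb there were 88 and 58, with 32 without a partner, and 8 of those near ACTB. Any start in the promoter table, in place of the gene's ends, was an alternative chosen after seeing the data. A position without a peak has no value in these lists, so its fragments are known only to have missed the threshold.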
